A study of Homo sapiens and Mus musculus with 16 samples.

Results

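The 19p12 zinc finger cluster is a run of ZNF genes on the short arm of human chromosome 19 that expanded in primates. Its members were taken as 34 listed symbols, and all 34 had a row among the 22286 genes of the human count table. In hg38 (GENCODE 44) they spanned chr19:19785839-24129968, a stretch of 4.34 Mb, with 18 genes on the plus strand and 16 on the minus strand. One further ZNF gene inside the span, ZNF723, was not a listed member. P-body-seq was used to measure the cluster: particles carrying GFP-LSM14A were sorted from the cytoplasmic fraction of lysed cells, and their RNA was sequenced beside that of the unsorted cytoplasm. P-bodies are cytoplasmic condensates of untranslated RNA and repressor proteins, and LSM14A is one of their protein components.

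There were 12 human libraries, with 2 P-body and 2 cytoplasm libraries in each of 3 cell types. HEK293T, a human embryonic kidney line, carried LSM14A-GFP from a lentivirus (line HEK293T-LSM14a-GFP). The other cells, liver bud progenitors and neurons at day 20, both came from UCLA4-LSM14a-GFP, a human embryonic stem cell line with the fusion at the AAVS1 locus. P-body and cytoplasm libraries of a cell type therefore shared its line and the fusion, and no cell without the fusion was compared. HEK293T libraries were labelled total RNA and the other human libraries polyA RNA, so cell type and library type cannot be told apart in any comparison that includes HEK293T. The 4 mouse libraries of the series hold no member and were not used.

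Most genes of the cluster encode KRAB zinc finger proteins. In such proteins an array of C2H2 zinc fingers reads DNA, often within retrotransposons, and the KRAB domain recruits TRIM28, which in turn brings the histone methyltransferase SETDB1 and other silencing factors. ZNF91 and ZNF93 are known for binding SVA and L1 retrotransposons, respectively. The members arose by repeated duplication, so their coding sequences are built from near-identical finger repeats and their reads can be hard to assign.

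The repeat itself is shown here because it is the sequence the members share. It also carries the microRNA seed match that was densest in their coding sequences, narrowly ahead of another seed. MicroRNAs guide Argonaute proteins to mRNAs through bases 2 to 8 of the microRNA, the seed, and this pathway is among those that deliver mRNAs to P-bodies. Of 1915 human seeds (RefSeq, GRCh38.p14), the seed UCACAUU had the most matching sites per kilobase in the members' coding sequences, and it was picked after that ranking was seen. It belongs to 3 mature microRNAs, encoded at chr19:13836595-13836615 (minus strand), chr9:95085265-95085287 (plus strand) and chrX:20017101-20017122 (minus strand) and printed 5′ to 3′ in that order with the seed in capitals.
hsa-miR-23a-3p: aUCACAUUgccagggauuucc
hsa-miR-23b-3p: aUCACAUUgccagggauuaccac
hsa-miR-23c: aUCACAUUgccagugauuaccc

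The matching site, AATGTGA on the transcript strand, occurred 450 times in the coding sequences of the members, and all 34 held at least one. This amounted to 6.85 sites per kilobase, against 0.116 per kilobase in 17537 other genes, of which 15.2% held a site, and 0.786 in other ZNF genes. The same letters on the opposite strand occurred 3 times, or 0.0457 per kilobase. Other seeds came close to this density in the members. Those ranked 2 to 6 had 6.51, 5.65, 5.48, 4.98 and 4.70 sites per kilobase, and each matched all 34 members. In other genes these 5 seeds had 0.0850 to 0.211 sites per kilobase. The ranking alone therefore does not set miR-23 apart. Sites of the miR-23 seed followed the finger repeat. Of the 445 such sites lying with 10 bases on either side in a single exon, 423 were in one reading frame. Of 411 neighbouring pairs, 330 were a whole multiple of 84 bases apart, the length of one finger unit. The examples below are exonic coding sequence of members whose results follow, printed 5′ to 3′ on the transcript strand, with the seed match in capitals.
ZNF91, chr19:23362247-23362273, minus strand: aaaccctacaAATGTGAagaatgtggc
ZNF724, chr19:23223549-23223575, minus strand: aaacactacaAATGTGAagaatgtggc
ZNF254, chr19:24127042-24127068, plus strand: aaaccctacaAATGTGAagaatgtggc
ZNF682, chr19:20006797-20006823, minus strand: aaaccatacaAATGTGAagaatgtggc
ZNF738, chr19:21383402-21383428, plus strand: aaacactacaAATGTGAaaaatgtggc

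The ZNF91 and ZNF254 stretches are the same word in separate genes. The number of sites per member ran from 6 to 35, with 35 in ZNF208 and 6 in ZNF506, ZNF486 and ZNF738. Across the members at or above 1 CPM, the number of sites and the P-body change had a Spearman rho of -0.32 in HEK293T (27 members), -0.24 in liver bud progenitors (31 members) and -0.05 in neurons (29 members). These correlations describe members that share sequence and libraries. A seed match is a match of letters, and the levels of miR-23 were not measured in these libraries.

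Library totals ranged from 6368953 to 17972284 counts, and 3 counts, taken as the floor, corresponded to 0.167 to 0.471 CPM (counts times 1000000 over the library total). Ribosomal RNA genes took 4.32 to 4.75% of counts in HEK293T P-bodies against 15.9 to 16.6% in cytoplasm, 12.5 to 12.8% against 20.4 to 21.1% in liver bud progenitors, and 11.4 to 13.4% against 21.5 to 24.9% in neurons. A list of 5 nuclear RNAs summed to 2071 to 2200 CPM in HEK293T P-bodies against 8608 to 9716 CPM in cytoplasm, 1982 to 2011 against 4105 to 4198 CPM in liver bud progenitors, and 3292 to 3451 against 7210 to 7585 CPM in neurons, and their part in the P-body changes was not tested. Neuron libraries carried 9400 to 12286 CPM over 8 neuronal markers. Liver bud progenitor libraries held all 6 pluripotency markers above 1 CPM, summing to 1644 to 2637 CPM, whereas 11 endoderm and liver markers summed to 224 to 517 CPM and ALB was at 0 in the cytoplasm. HEK293T libraries held 2.86 to 5.36 CPM of the pluripotency markers. The labels do not say whether same-group libraries came from separate cultures, so p-values measure the spread between these libraries.

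The first question was where along the cluster RNA was found. With a level of 20 CPM, averaged over the 4 libraries of a cell type, as a dividing line chosen after the values were seen, the members fell into blocks of neighbours. The 8 members at the centromere-distal end, from ZNF506 to ZNF626 (chr19:19785839-20661596), were at 0.899 to 14.6 CPM in HEK293T but at 104 to 668 CPM in liver bud progenitors and 28.4 to 149 CPM in neurons. The next 10, from ZNF66 to ZNF100 (chr19:20776304-21767579), were at 45.1 to 531 CPM in HEK293T, 52.2 to 624 CPM in liver bud progenitors and 28.0 to 93.5 CPM in neurons. A further 8 neighbours, ZNF208 to ZNF728 (chr19:21932958-23003176), were low everywhere, at 0.600 to 12.2 CPM in HEK293T, 0.731 to 2.53 CPM in liver bud progenitors and 0.243 to 3.56 CPM in neurons. ZNF724, ZNF91 and ZNF675 formed a run at 144 to 700 CPM in HEK293T, 351 to 1328 CPM in liver bud progenitors and 76.3 to 644 CPM in neurons.

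Outside these runs, ZNF43 (0.881 CPM), ZNF730 (0.369 CPM) and ZNF681 (2.29 CPM) were low in HEK293T and at 277 to 499 CPM in liver bud progenitors. ZNF726 was below the line in each cell type, at 1.36, 14.02 and 2.69 CPM in HEK293T, liver bud progenitors and neurons. ZNF254, the last member, was at 361, 1029 and 304 CPM. In all, 14 members were above the line in HEK293T and in liver bud progenitors, 11 were below it in HEK293T and above it in liver bud progenitors, and 9 were below it in both. The members nearest the line in HEK293T were ZNF506 at 14.6 CPM and ZNF738 at 45.1 CPM. No test was made of the level in HEK293T against the other cells, because library type changes with cell type.

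**Figure D1:**
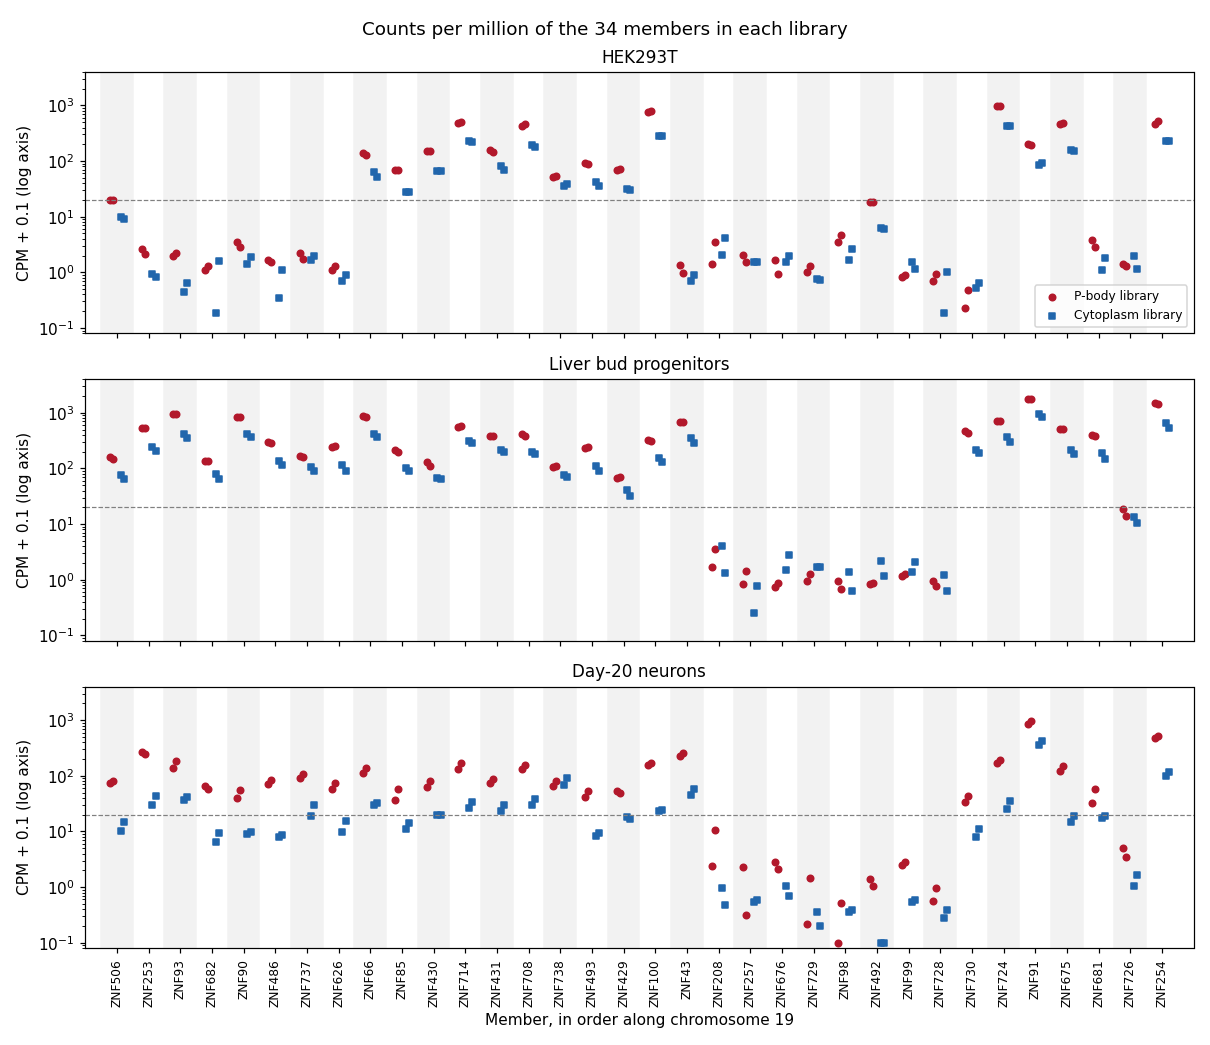
CPM (log axis, 0.1 added) of the 34 members in each library, in order along chromosome 19, with P-body libraries as red circles, cytoplasm libraries as blue squares and a dashed line at 20 CPM. The 8 members from ZNF506 to ZNF626 sit at or under the line in HEK293T and at 63.9 CPM or more in all liver bud progenitor libraries, and the 8 from ZNF208 to ZNF728 lie below it in all 3 cell types.

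Per kilobase of transcript, ZNF724 had the highest cytoplasmic level in HEK293T (152.6 ± 1.07 CPM per kilobase, SD, n = 2), followed by ZNF675 (66.9 ± 3.72), ZNF254 (56.1 ± 0.381), ZNF100 (49.3 ± 0.701) and ZNF708 (46.4 ± 3.80). ZNF100 and ZNF708 did not differ beyond their spread. In liver bud progenitors the order on the same scale was ZNF91 (164.6 ± 14.6), ZNF254 (146.5 ± 22.9), ZNF93 (139.6 ± 14.7), ZNF724 (119.4 ± 20.0) and ZNF90 (105 ± 11.1), and the SD ranges of neighbours in this order overlapped. In neurons ZNF91 stood first (70.9 ± 8.29), then ZNF254 (26.4 ± 3.25), ZNF93 (14.2 ± 1.46), ZNF738 (12.8 ± 2.58) and ZNF724 (10.8 ± 2.32), of which the last 3 overlapped in spread.

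How far these levels belong to a single gene depends on sequence shared with other genes. The share of a member's 31-base words that also occurs in another gene ranged from 9.4% in ZNF682 to 69.6% in ZNF98, 66.0% of whose words were found in ZNF492. ZNF724 shared 62.9% of its words, and 51.5% of its 100-base words, mostly with an overlapping readthrough gene. The shares of 31-base words were 44.3% for ZNF208, 44.2% for ZNF492, 38.9% for ZNF66 and 37.6% for ZNF738, and 20.4% for ZNF91 and 18.3% for ZNF254. Values of ZNF98, ZNF724, ZNF208, ZNF492, ZNF66 and ZNF738 are less certain for that reason. Sharing was counted against all GENCODE 44 genes, while the counts follow refGene symbols. In ZNF724, ZNF208 and ZNF738 most shared words lay in a single GENCODE gene without a symbol (54.4, 31.6 and 27.2% of their 31-base words). Whether reads were lost to or gained from other genes in these counts was not tested.

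The main comparison asked whether RNA of the cluster was higher in P-bodies than in the cytoplasm of the same cells. A member was called enriched when edgeR's quasi-likelihood test gave a higher P-body level with an adjusted p under 0.05 over all genes tested. In HEK293T 22 of 34 members were enriched, where 19.3% of the 21903 genes tested were called higher and 22.8% lower. The median log2 change of the members was 1.22, against -0.01 for all genes. No member was depleted at an adjusted or an unadjusted p under 0.05, nor in DESeq2. Both P-body libraries lay above both cytoplasm libraries for 26 members, where the same held for 27.8% of all genes, and the reverse held for ZNF99 and ZNF730.

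All 14 HEK293T members at or above 20 CPM were enriched, with log2 changes from 0.64 (ZNF738) to 1.75 (ZNF675) and a median of 1.33. The share of all genes at that level is not given here. At or above 1 CPM, 22 of 27 members were enriched, against 32.0% of all genes and 71.6% of other ZNF genes. That level averages both fractions, so P-body libraries can carry a member over it. ZNF93 and ZNF486 passed with cytoplasm means of 0.435 and 0.617 CPM, while ZNF99, at 1.25 CPM in cytoplasm, did not. ZNF724 was measured at 963 and 983 CPM in the P-body libraries and at 429 and 425 CPM in the cytoplasm, or 1.32 ± 0.05 on the log2 scale (± SE throughout, adjusted p from edgeR = 7.5e-31). ZNF100 was at 775 and 790 CPM against 278 and 284 CPM (1.61 ± 0.05, edgeR adjusted p = 7.5e-34). ZNF254 was at 469 and 517 CPM against 228 and 230 CPM (1.24 ± 0.06, edgeR adjusted p = 4.6e-27). In these members the fractions were well separated and the replicates close together.

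The largest called changes in HEK293T were at low levels. ZNF93 was at 1.83 and 2.17 CPM in P-bodies and 0.335 and 0.536 CPM in cytoplasm, the latter from 4 and 6 counts, with a change of 2.32 ± 0.54 (edgeR adjusted p = 0.00023). ZNF492 was at 18.5 and 18.4 CPM against 6.11 and 5.81 CPM (1.76 ± 0.18, edgeR adjusted p = 6.1e-13). It was the highest of the 8-gene low block in HEK293T. The 12 members not called had mean levels of at most 2.68 CPM, with log2 changes from -0.70 (ZNF730) to 0.85 (ZNF729). For 7 of them the mean level was under 1 CPM, and ZNF682 was at 1 and 17 counts in the 2 cytoplasm libraries. Without the second of these the log2 change of ZNF682 was 3.72 (edgeR adjusted p = 0.0037), against 0.61 with it.

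In liver bud progenitors 26 of 34 members were enriched and 8 were not called, where 21.4% of 21951 genes were higher and 17.1% lower. The median log2 change was 1.26, against -0.09 for all genes. No member was depleted by edgeR or DESeq2, and ZNF676 alone was lower at an unadjusted p under 0.05 (-1.35 ± 0.63, edgeR adjusted p = 0.086). The P-body libraries were above both cytoplasm libraries for 27 members, where this held for 26.1% of all genes, and below both for ZNF676, ZNF729, ZNF492 and ZNF99, all from the low block.

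The 25 members at or above 20 CPM were all enriched, within a narrow range from 0.73 (ZNF738) to 1.57 (ZNF675) and a median of 1.31. At or above 1 CPM, 26 of 31 members were enriched, against 32.2% of all genes and 56.7% of other ZNF genes. ZNF91 was at 1796 and 1739 CPM in P-bodies and 945 and 833 CPM in cytoplasm (1.18 ± 0.05, edgeR adjusted p = 3.5e-32). ZNF254 was at 1487 and 1431 CPM against 665 and 533 CPM (1.47 ± 0.05, edgeR adjusted p = 8.8e-34). ZNF93 was at 946 and 954 CPM against 414 and 357 CPM (1.49 ± 0.05, edgeR adjusted p = 5.1e-34). The cytoplasm libraries were further apart than the P-body libraries in each case, and the fractions did not overlap. ZNF675, also known as an inhibitor of TRAF6 signalling, had the largest called change, with 504 and 509 CPM against 211 and 179 CPM (1.57 ± 0.06, edgeR adjusted p = 3.5e-32).

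Among the 9 low members, ZNF726 was enriched, at 18.6 and 13.7 CPM against 13.3 and 10.5 CPM (0.63 ± 0.20, edgeR adjusted p = 0.0072). The other 8 were at 6 to 35 counts in P-body libraries and 1 to 25 in cytoplasm, and their log2 changes spread from -1.35 to 1.45. None of the 8 was called. ZNF676 was called lower with library size scaling, with edgeR's filter on low counts and with the GC trend removed, and ZNF492 was called lower under the last of these (-1.69, edgeR adjusted p = 0.048).

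In neurons 26 of 34 members were enriched, against 14.6% of 22093 genes higher and 14.1% lower. The median log2 change was 1.91, against 0.19 for all genes. No member was depleted at an adjusted or unadjusted p under 0.05 or by DESeq2. The P-body libraries were above both cytoplasm libraries for 30 members, where the same held for 38.7% of all genes, and the order was reversed for none.

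Of the 25 neuron members at or above 20 CPM, 24 were enriched, and the median log2 change of the 25 was 2.05. The level averages both fractions, so some of the 25 passed only through their P-body libraries. For example, ZNF682, ZNF486 and ZNF90 had cytoplasm means of 7.8, 8.3 and 9.3 CPM. The cut thus favours members that are high in P-bodies. At or above 1 CPM, 25 of 29 members were enriched, against 20.0% of all genes and 51.5% of other ZNF genes. ZNF91 was at 853 and 960 CPM in P-bodies and 351 and 414 CPM in cytoplasm (1.08 ± 0.09, edgeR adjusted p = 1.1e-06). ZNF254 was at 476 and 523 CPM against 98.7 and 118 CPM (2.05 ± 0.10, edgeR adjusted p = 1.3e-08). ZNF253 was at 271 and 251 CPM against 30.3 and 42.5 CPM (2.68 ± 0.14, edgeR adjusted p = 2.6e-08). The most abundant member, ZNF91, thus had the smallest P-body change of the 24 enriched members, while the largest among the 25 were in ZNF486 (3.06 ± 0.19), ZNF675 (2.85 ± 0.16) and ZNF682 (2.81 ± 0.22).

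ZNF738 was the exception. Its neuron levels were 64.4 and 81.7 CPM in P-bodies and 68.1 and 90.6 CPM in cytoplasm, so the fractions overlapped, with a log2 change of -0.28 ± 0.16 (edgeR adjusted p = 0.20). Without the second neuron P-body library the change was -0.45 (edgeR adjusted p = 0.018), and with the trend over GC content removed it was -1.08 (edgeR adjusted p = 0.0003). ZNF738 was also the least enriched of the members at or above 20 CPM in HEK293T and in liver bud progenitors. It had the fewest finger units of the cluster, at 5, and shared 24.2% of its 100-base words with other genes.

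The largest called changes in neurons rested on few reads. ZNF208 was at 20 and 101 counts in P-bodies and 10 and 4 in cytoplasm, or 2.32 and 10.7 CPM against 0.871 and 0.387 CPM (3.15 ± 0.80, edgeR adjusted p = 0.0093). The P-body libraries differed widely, and without the second the change was 1.69 (edgeR adjusted p = 0.13). ZNF492 had 11 and 9 counts in P-bodies (1.27 and 0.951 CPM) and 0 in both cytoplasm libraries (edgeR adjusted p = 0.037). Against a floor of 3 counts per cytoplasm library it was 4.03-fold or more higher in P-bodies by library totals, and its fitted value of 6.40 depends on the prior count. That bound leaves out TMM scaling and the error of the P-body counts. Scaling by library totals raised the all-gene median log2 change in neurons by 0.17. Leaving out either cytoplasm library ended the call (edgeR adjusted p = 0.18 and 0.16), as did removing the GC trend (edgeR adjusted p = 0.090). The other 7 low members were at 0 to 42 counts in P-bodies and 1 to 16 in cytoplasm, with log2 changes from -0.51 (ZNF98) to 2.30 (ZNF99), and none was called. ZNF99 (21 and 26 counts against 5 and 5) and ZNF726 (42 and 32 against 11 and 16) were higher at an unadjusted p under 0.05, with edgeR adjusted p of 0.069 and 0.093. The member median was 1.91 also with ZNF492 at its bound.

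**Figure D2:**
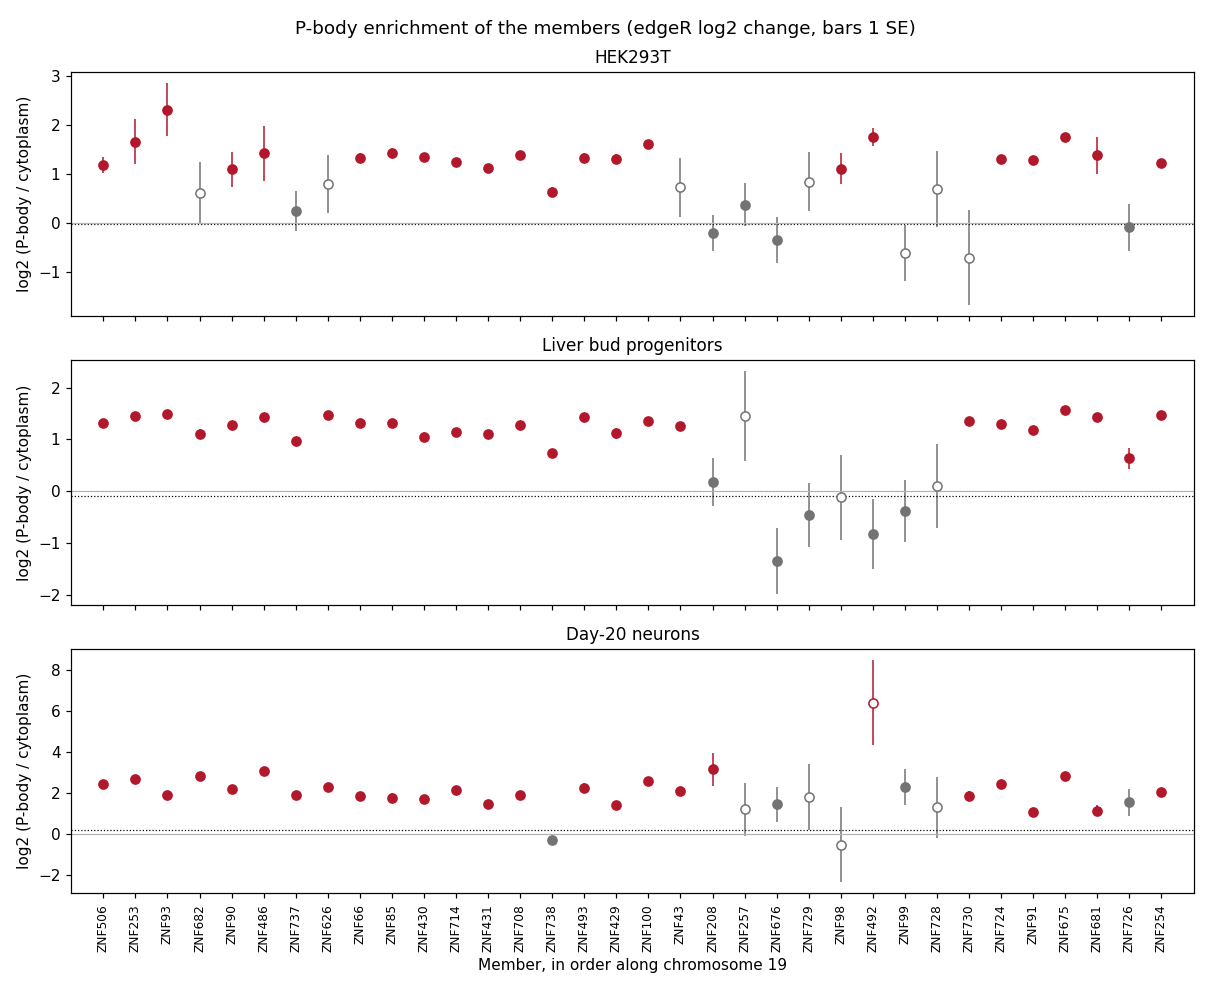
Log2 P-body over cytoplasm of each member (edgeR, bars 1 SE), in order along chromosome 19 with a separate axis range per cell type, where red marks enriched members, grey those not called, open circles a mean under 1 CPM and the dotted line the median of all genes. Members outside the ZNF208 to ZNF728 block sit between 0.73 and 1.57 in liver bud progenitors apart from ZNF726 at 0.63, and neurons show a wider spread with ZNF738 at -0.28.

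Members were AT-rich, and the paper reports P-body enrichment of AU-rich transcripts. Each count was therefore repeated with any trend over transcript GC content removed. The median GC content of the members' transcripts was 36.8%, and 4.42% of 17571 genes lay below it. In the coding sequence the median was 37.9%, with 1.78% of genes below, and in the 3′ UTR it was 34.3%, with 19.4% below. Other ZNF genes had medians of 43.4, 44.4 and 40.3%. With the trend removed, 16 members were enriched in HEK293T with a median log2 change of 0.48, 24 in liver bud progenitors with a median of 0.36 and 22 in neurons with a median of 1.13. Under the same setting 14.7, 17.0 and 10.3% of all genes were higher, with medians of -0.038, 0.0013 and 0.17. ZNF676 and ZNF492 were then called lower in liver bud progenitors and ZNF738 in neurons. ZNF738 then changed sign in HEK293T (-0.0043) and in liver bud progenitors (-0.019), and so did ZNF726 in liver bud progenitors (-0.054). The part of base composition in the result was not tested.

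Within the cluster, transcript GC content and length ordered the members weakly. Spearman's rho between transcript GC content and P-body change was -0.15, -0.15 and -0.11 in HEK293T (27 members), liver bud progenitors (31 members) and neurons (29 members), and that with transcript length was -0.21, -0.27 and -0.09. Coding-sequence GC content gave rho of -0.32, -0.06 and 0.08. The mean cytoplasm CPM, which also enters the change, gave 0.10, 0.63 and -0.32. Zinc finger units per protein, counted from the translated coding sequence, ran from 5 to 36 with a median of 13, and gave rho of -0.16, -0.31 and -0.13. The 25 members at or above 20 CPM in both UCLA4-derived cell types had a rho of 0.46 between the changes in liver bud progenitors and neurons. For the 14 above that level in HEK293T, rho with the change in neurons was 0.56 and with that in liver bud progenitors 0.53. Members share sequence and libraries, so these are descriptions.

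Because paralogs can share reads, counts were also summed over the 34 members. The sum was 4586.5 and 4714 CPM in HEK293T P-bodies against 1993 and 1934 CPM in cytoplasm, a log2 ratio of 1.37 with TMM scaling. In liver bud progenitors it was 12691 and 12442 CPM against 6248 and 5330 CPM, a log2 ratio of 1.31. In neurons it was 3600 and 4146 CPM against 949 and 1158 CPM, a log2 ratio of 1.72. The fractions were separate in each cell type, and liver bud progenitors carried the highest sums in both fractions. Scaled by library totals in place of TMM, the log2 ratios were 1.24, 1.12 and 1.88. Ribosomal RNA took a smaller share of P-body libraries, and with library totals that leave it out, also without TMM, they were 1.05, 0.98 and 1.69.

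One member could weigh heavily on the sum. ZNF724 held 21.1% of the HEK293T member counts and ZNF91 14.4% of those in liver bud progenitors. In neurons ZNF91 held 36.3% of the summed cytoplasm CPM and 23.4% of the summed P-body CPM, and without it the neuron log2 ratio was 1.98. Without the top member the ratio was 1.39 in HEK293T and 1.33 in liver bud progenitors.

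**Figure D3:**
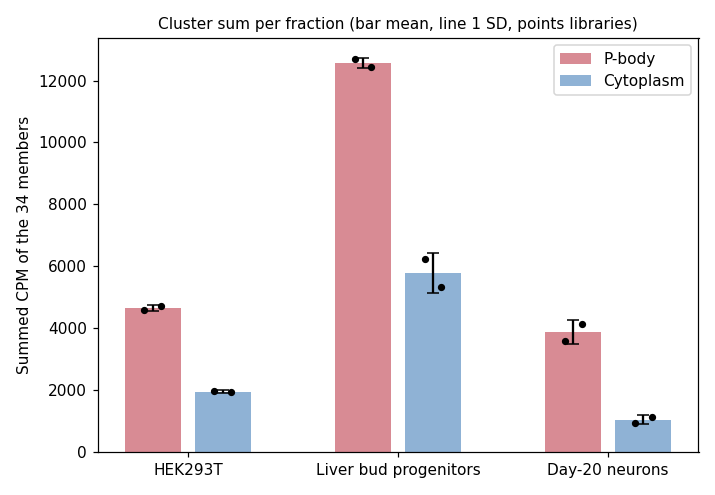
Summed CPM of the 34 members in P-body (red) and cytoplasm (blue) libraries of the 3 cell types, as mean (bar), 1 SD (line) and single libraries (points). P-body means were 4650, 12566 and 3873 CPM and cytoplasm means 1964, 5789 and 1054 CPM, from left to right.

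Whether P-body enrichment itself differed between cells was tested as an interaction of fraction and cell type over 8 libraries. Between neurons and liver bud progenitors, which share line and library type, 18 members were more enriched in neurons and 1 less, where 9.21% of 22268 genes were higher and 8.5% lower. Of 444 other ZNF genes 23.0% were higher and 2.48% lower. The members' median difference was 0.87, against 0.23 for all genes, so a part of it was shared by genes in general. Without the first neuron cytoplasm library the count of members higher in neurons was 10, and without the second neuron P-body library 3 members were lower.

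ZNF682 had the largest difference outside the low block, at 1.70 ± 0.22 (edgeR adjusted p = 6.6e-05). It was at 64.7 and 57.5 CPM in neuron P-bodies against 6.27 and 9.38 CPM in cytoplasm, and at 136 and 136 CPM against 80.1 and 63.9 CPM in liver bud progenitors. ZNF486 followed at 1.62 ± 0.17 (edgeR adjusted p = 7.1e-06). ZNF738 was the member less enriched in neurons, at -1.01 ± 0.18 (edgeR adjusted p = 0.0011). It was at 106 and 109 CPM in liver bud progenitor P-bodies against 76.5 and 71.1 CPM in cytoplasm. The difference for ZNF91 was -0.11 ± 0.10 and for ZNF681 -0.28 ± 0.26, with edgeR adjusted p of 0.54 and 0.51, so neither was called. ZNF93, ZNF85, ZNF431, ZNF429 and ZNF730 had differences above 0 that were not called either (edgeR adjusted p from 0.065 to 0.40). The largest fitted difference, 7.14 ± 1.85 for ZNF492 (edgeR adjusted p = 0.015), came from 7 to 13 counts per liver bud progenitor library and the 0 counts in neuron cytoplasm, and that call was lost in 5 of the 8 fits that left out 1 library (edgeR adjusted p from 0.055 to 0.074).

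**Figure D4:**
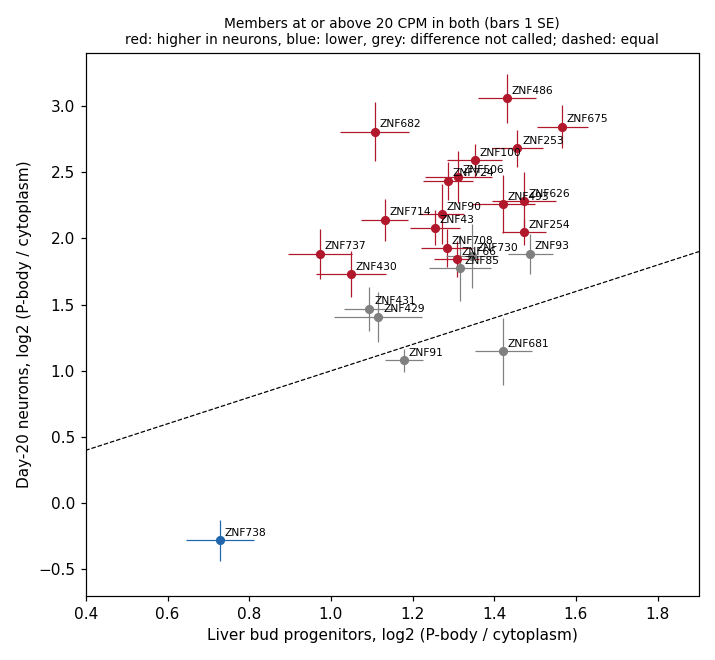
Log2 P-body over cytoplasm in liver bud progenitors (x axis) and day-20 neurons (y axis) for the 25 members at or above 20 CPM in both, with bars of 1 SE and a dashed line of equality. Red members were called more enriched in neurons and lie above the line, and ZNF738 (blue) lies below it. Grey members had no called difference, with ZNF91 and ZNF681 under the line and ZNF93, ZNF85, ZNF431, ZNF429 and ZNF730 above it.

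HEK293T was set against each of the others in the same way, with library type and cell type changing together. Against liver bud progenitors 11 members were higher and 1 lower in HEK293T, where 15.0% of genes were higher and 12.5% lower. Of other ZNF genes 34.9% were higher and 3.60% lower. On chromosome 19 outside the span these shares were 35.4 and 2.91%. The members' share of 32.4% higher was thus close to that of other ZNF genes. The members' median difference was 0.26 and that of all genes 0.21, so the members' median was close to the shift of genes in general. ZNF492 differed by 2.80 ± 0.55 (edgeR adjusted p = 5.5e-05), ZNF430 by 0.52 ± 0.12 (edgeR adjusted p = 0.00052) and ZNF730 by -1.79 ± 0.59 (edgeR adjusted p = 0.025). ZNF430 was at 152 and 154 CPM against 66.8 and 65.05 CPM in HEK293T and at 129 and 111 CPM against 68.5 and 64.0 CPM in liver bud progenitors. ZNF730 had 2 and 7 counts in HEK293T P-bodies and 5 and 6 in cytoplasm, against 470.5 and 430 CPM over 212 and 191 CPM in liver bud progenitors. The count of higher members was 7 without the second liver bud progenitor P-body library and 6 without the first cytoplasm library of these cells. The ZNF730 call was lost without the first HEK293T P-body library or either HEK293T cytoplasm library (edgeR adjusted p from 0.063 to 0.22).

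Against neurons 1 member was higher and 11 were lower in HEK293T, where 6.19% of genes were higher and 6.35% lower. Of other ZNF genes 9.68% were higher and 15.8% lower. The members' median difference was -0.84, against -0.16 for all genes. ZNF738 was the member higher in HEK293T, by 1.05 ± 0.20 (edgeR adjusted p = 0.0021), with 52.2 and 53.7 CPM in HEK293T P-bodies and 35.8 and 38.8 CPM in cytoplasm. With library size scaling this difference was 0.62 (edgeR adjusted p = 0.056). ZNF492 (-4.76 ± 1.39, edgeR adjusted p = 0.035) and ZNF208 (-3.23 ± 1.02, edgeR adjusted p = 0.0497) had the largest fitted differences below 0. ZNF208 was at 20 and 61 counts in HEK293T P-bodies and 23 and 46 in cytoplasm, and its fractions overlapped there. The call for ZNF208 was lost in 7 of the 8 fits that left out 1 library, with edgeR adjusted p from 0.071 to 0.24, and that for ZNF492 in 6 of them, with edgeR adjusted p from 0.066 to 0.15. The ZNF208 call was also lost with RLE size factors, with edgeR's filter on low counts, without ribosomal RNA genes or with the GC trend removed (edgeR adjusted p from 0.052 to 0.063), and the ZNF492 call in DESeq2 (adjusted p = 0.068).

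The count of lower members in HEK293T against neurons varied with single libraries. It was 4 and 6 without the first and the second HEK293T P-body library, 7 without either HEK293T cytoplasm library, 4 without the first neuron cytoplasm library and 18 without the first neuron P-body library. The count of higher members was 3 without the second neuron P-body library and 2 without the first neuron cytoplasm library.

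The cytoplasm of neurons was then compared with that of liver bud progenitors. In this comparison 28 members were lower in neurons and 1 was higher, where 25.8% of 21900 genes were lower and 26.0% higher. Of 443 other ZNF genes 39.7% were lower and 26.4% higher. The members' median log2 difference was -2.41 (-2.39 with ZNF492 at its bound), against -0.16 for all genes. With the GC trend removed it was -1.07, against -0.098 for all genes. Fewer cells expressing a member and less of its RNA per cell cannot be told apart in such bulk libraries. ZNF90 was at 8.98 and 9.67 CPM in neuron cytoplasm and at 423 and 364 CPM in liver bud progenitors (-5.01 ± 0.11, edgeR adjusted p = 3.8e-51). ZNF492 had 0 counts in both neuron libraries and 13 and 8 in liver bud progenitors. It was 5.65-fold or more lower by library totals, without TMM and without the error of the liver bud progenitor counts. Scaling by library totals moved the all-gene median of this comparison by -0.37. ZNF738 was the member higher in neurons (0.48 ± 0.11, edgeR adjusted p = 9.6e-05), and with library size scaling its difference was 0.10 (edgeR adjusted p = 0.48).

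ZNF91 fell by 0.83 on the log2 scale (SE 0.07, edgeR adjusted p = 1.9e-16) and ZNF429 by 0.69 (SE 0.16, edgeR adjusted p = 0.00021). These were the smallest of the called decreases. With the GC trend removed the difference was 0.41 for ZNF91 and 0.61 for ZNF429, of opposite sign, and the count of lower members was 23. The 6 pluripotency markers summed to 1644 to 1672 CPM in liver bud progenitor cytoplasm and 37.1 to 39.6 CPM in neuron cytoplasm, with none at 0. Their part in the result was not tested.

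The silencing partners of KRAB zinc finger proteins were not uniformly enriched. Of 24 partner genes in the table, 12 were enriched and 9 depleted in HEK293T, 13 and 9 in liver bud progenitors, and 10 and 6 in neurons, with median log2 changes of 0.11, 0.26 and 0.02. All 24 were at or above 1 CPM. Of all genes at that level, 32.0, 32.2 and 20.0% were enriched in HEK293T, liver bud progenitors and neurons. The depleted shares were 38.1, 24.6 and 21.0%, against 37.5, 37.5 and 25.0% of the partners. TRIM28, the corepressor bound by the KRAB domain, was depleted in all 3. It was at 28.0 and 27.0 CPM in HEK293T P-bodies against 85.0 and 87.7 CPM in cytoplasm (-1.52 ± 0.10, edgeR adjusted p = 2.8e-21). In liver bud progenitors it was at 49.5 and 43.5 CPM against 91.7 and 105 CPM (-0.90 ± 0.09, edgeR adjusted p = 8.6e-13), and in neurons at 48.5 and 44.5 CPM against 96.9 and 91.1 CPM (-1.18 ± 0.14, edgeR adjusted p = 2.2e-05). With the GC trend removed the liver bud progenitor change was -0.20 (edgeR adjusted p = 0.080).

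SETDB1, which methylates histone H3 lysine 9, varied with the cell type. It was at 340.5 and 326.5 CPM in HEK293T P-bodies against 165 and 174 CPM in cytoplasm (1.11 ± 0.06, edgeR adjusted p = 5.4e-24). In liver bud progenitors it was lower in P-bodies, at 79.0 and 83.4 CPM against 122 and 138 CPM (-0.50 ± 0.08, edgeR adjusted p = 4.2e-07). In neurons it was at 358 and 328 CPM against 245 and 259 CPM (0.28 ± 0.09, edgeR adjusted p = 0.031), a call lost without either cytoplasm library or the first P-body library (edgeR adjusted p = 0.096 to 0.21). The difference in SETDB1 between cells was not among the tests reported here.

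The largest called partner changes in liver bud progenitors were in CBX3, a heterochromatin protein, and MORC2, an ATPase of the HUSH pathway. CBX3 was at 44.9 and 35.6 CPM against 22.3 and 18.5 CPM (1.17 ± 0.14, edgeR adjusted p = 5.8e-11), and at 0.25 (edgeR adjusted p = 0.17) with the GC trend removed. MORC2 was at 42.8 and 41.7 CPM against 98.1 and 108 CPM (-1.11 ± 0.09, edgeR adjusted p = 1.5e-16). In neurons the largest was in RESF1, a retroelement silencing factor, at 413 and 451 CPM against 102 and 114 CPM (1.84 ± 0.09, edgeR adjusted p = 2.2e-08).

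Other ZNF genes showed the same direction. Of 443 tested in HEK293T, 277 were enriched and 38 depleted, with a median log2 change of 0.73. Of 444 in liver bud progenitors, 234 were enriched and 40 depleted (median 0.55), and of 444 in neurons 218 and 32 (median 0.89). On chromosome 19 outside the span, the medians were 0.90, 0.63 and 1.11, with 140 of 205, 126 of 206 and 118 of 206 enriched. The members' medians of 1.22, 1.26 and 1.91 were above these, with no test of the difference between lists.

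**Figure D5:**
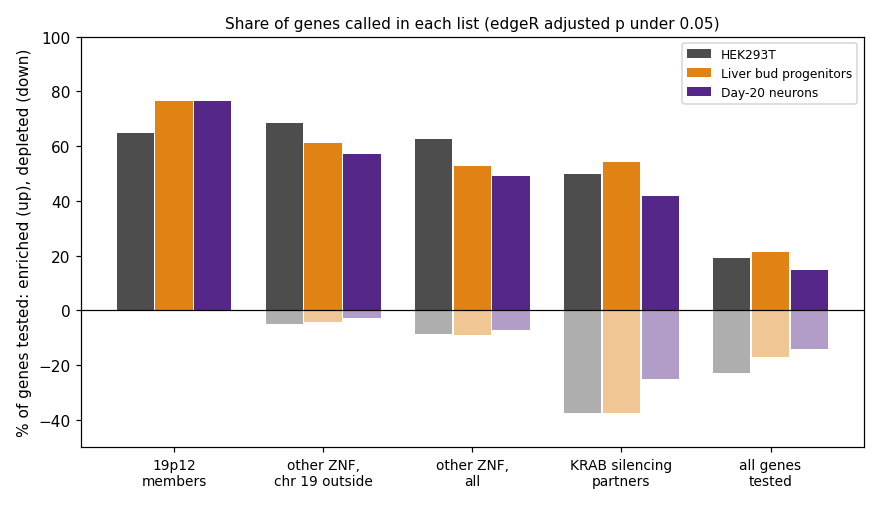
Share of genes called enriched (bars up, full colour) and depleted (bars down, pale) in each list and cell type, in percent of the genes tested. Members had 64.7, 76.5 and 76.5% enriched and none depleted in HEK293T, liver bud progenitors and neurons, other ZNF genes 62.5, 52.7 and 49.1% enriched, and the KRAB silencing partners had members in both directions.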

How the data were processed

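Raw counts by gene symbol, whole numbers deposited by the authors for 12 human libraries, were used, on hg38 with refGene annotation. Their methods describe the nf-core pipeline with salmon for random-primed libraries and HISAT2 with featureCounts for polyA libraries, and which of them made which columns is not given in the sources used here. The lowest gene total over the libraries was 10 counts. Tables of the authors' own DESeq2 fold changes and p-values, and the mouse table, were not used. Members and gene lists were chosen with earlier results of these data known.

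Each comparison was fitted on the whole table with edgeR 4.0.16 in R 4.3.3 (glmQLFit and glmQLFTest, TMM, genes at 0 in all libraries compared left out, Benjamini-Hochberg over all genes, two-sided, adjusted p under 0.05, no minimum fold). CPM was computed from the deposited library totals. Members were named with library values if among the 3 highest by mean CPM, or the 2 largest called changes per direction. TRIM28, SETDB1 and the partner with the largest called change per direction were named too. Members named outside this rule were chosen after their values were seen. DESeq2 1.42.0, other scalings, filters, a GC correction, a replicate block and leaving out libraries were alternatives. Levels per kilobase, GC content and shared words came from the GENCODE 44 canonical transcript, matched for 20610 genes. Replicates differed by more than sampling noise. The chi-square per gene was 24.8 between the neuron P-body libraries and 3.57 to 6.69 in the other groups, so neuron P-bodies were the least reproducible. Floors cover counting error only, while SDs and SEs include the spread between libraries. In simulations with 200 genes changed by 1.5 log2 units, 97.5, 97.0 and 95.5% were recovered in HEK293T, liver bud progenitors and neurons, and 85.0, 85.5 and 78.5% in the interactions of neurons with liver bud progenitors, HEK293T with liver bud progenitors and HEK293T with neurons. These simulations gave every gene the same fixed dispersion and changed only genes above a minimum expected count. Their recovery does not cover the members at low counts or a spread beyond that dispersion.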

Additional observations from a re-analysis of the deposited data

Results flagged for a closer look

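These results were set apart because edgeR's interaction term called the P-body effect different between cell types. Between neurons and liver bud progenitors 18 members were higher and 1 lower in neurons, where 9.21% of all genes were higher and 8.5% lower, with differences of 7.14 for ZNF492, 1.70 for ZNF682 and -1.01 for ZNF738 on the log2 scale. Between HEK293T and liver bud progenitors 11 members were higher and 1 lower in HEK293T, where 15.0% of all genes were higher and 12.5% lower, with differences of 2.80 for ZNF492, 0.525 for ZNF430 and -1.79 for ZNF730. Between HEK293T and neurons 1 member was higher and 11 were lower in HEK293T, where 6.19% of all genes were higher and 6.35% lower, with differences of 1.05 for ZNF738, -4.76 for ZNF492 and -3.23 for ZNF208. In these 3 comparisons, in that order, 23.0, 34.9 and 9.68% of other ZNF genes were higher and 2.48, 3.60 and 15.8% lower. The 11 higher members against liver bud progenitors numbered 3 with edgeR's filter on low counts and 4 with library size scaling. Single calls were lost in several fits that left out 1 library: ZNF492 between neurons and liver bud progenitors, ZNF730 between HEK293T and liver bud progenitors, and ZNF492 and ZNF208 between HEK293T and neurons. In the comparisons with HEK293T, library type and cell type cannot be told apart. ZNF492 had 0 counts in neuron cytoplasm, so its fitted sizes there depend on the prior count. The comparisons share libraries and are not independent of each other.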

How the results depend on the processing

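The counts of enriched members stayed within 1.5 times the value reported under each alternative run, at 19 to 23 in HEK293T, 25 to 26 in liver bud progenitors and 25 to 27 in neurons when a library was left out. Members lower in P-bodies of liver bud progenitors numbered 1 with library size only or edgeR's filter on low counts, and 2 with the GC trend removed. In neurons they numbered 1 with the GC trend removed or with all human libraries in one fit, and 0 to 1 when a library was left out. Library size scaling moved the median of all genes by -0.13, -0.18 and 0.17 in the 3 cell types and by 0.35, -0.16, -0.43 and -0.37 in the comparisons between cells. The summed log2 ratio in HEK293T was 1.46 with RLE size factors, 1.24 by library size and 1.05 with totals without ribosomal RNA. In liver bud progenitors it was 1.12 by library size and 0.98 without ribosomal RNA, and in neurons it was 1.98 without ZNF91. Members more enriched in neurons than in liver bud progenitors numbered 10 to 24, and members less enriched 1 to 3, when a library was left out. In HEK293T against liver bud progenitors the higher members numbered 4 by library size, 3 with the filter, 7 with DESeq2, 7 without ribosomal RNA genes (an alternative added after seeing the data), and 6 to 13 when a library was left out, and the lower 0 to 1. In HEK293T against neurons the higher members numbered 0 by library size, 2 with RLE, DESeq2, the GC trend removed or no ribosomal RNA genes, and 1 to 3 when a library was left out, and the lower 21 by library size and 4 to 18 when a library was left out. In the cytoplasm comparison the higher members numbered 0 by library size and 3 with the GC trend removed. The cause of these changes was not tested.

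With the GC trend removed the sign reversed for ZNF738 in HEK293T (-0.0043) and liver bud progenitors (-0.019), for ZNF726 in liver bud progenitors (-0.054), and for ZNF429 (0.61) and ZNF91 (0.41) in the cytoplasm comparison. For ZNF682 the difference between HEK293T and liver bud progenitors ran from -1.19 to 2.79 when a library was left out, the latter without the second HEK293T cytoplasm library, against -0.25 with all.

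Same-numbered libraries did not deviate together (correlations of -0.006, -0.022 and -0.016 in HEK293T, liver bud progenitors and neurons). Such values cannot show whether the numbers pair the samples, since separate noise in each library would also give them. The paper sorted P-bodies from the cytoplasmic fraction and stored aliquots of that fraction beside them. The labels do not say which libraries match. With the replicate block, 22, 26 and 25 members were enriched, ZNF492 in neurons was not called (edgeR adjusted p = 0.052), 22 and 1 differed between neurons and liver bud progenitors, 11 and 1 between HEK293T and liver bud progenitors, 2 and 13 between HEK293T and neurons, and 1 and 26 in cytoplasm (higher and lower).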
